A study of Danio rerio with 8 samples.

Results

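Gene expression at the gastrula stage was compared with gene expression at the 8-somite stage in zebrafish embryos that had been kept in normal oxygen. The comparison used 4 of the 8 samples of a study of developmental hypoxia: all those whose labels gave normoxia, with 2 samples at each stage. The gastrula group was wildtype embryos at the shield stage, 6 h into development, and the segmentation group was wildtype embryos at 12 h with 8 somites. Both groups were untreated whole embryos raised at 28.5 °C, and each sample pooled 12 to 15 synchronized embryos without their chorions. Each stage had 1 sample labelled with Cy3 and 1 with Cy5. The other 4 samples were embryos of the same stages exposed for 1 to 2 h to less than 1% oxygen. Of these, both gastrula samples and 1 segmentation sample had values, so 7 arrays were analysed in all.

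At the shield stage the zebrafish embryo is in gastrulation, when cells move inwards to form the germ layers and the dorsal organizer is visible as a thickening. By the 8-somite stage the body axis is laid down, the paraxial mesoderm is being cut into somites, and the brain, notochord and epidermis are forming. Egg transcripts that the mother supplied are being cleared over this time, while the embryo's own genes take over.

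The arrays gave log2 values for 37157 rows, of which 2663 carried a RefSeq transcript identifier that matched 1 gene symbol. These covered 2650 genes, 7.17% of the rows by identifier, so a gene that is not mentioned may have an unnamed row. The 4 arrays had medians between 8.51 and 8.58. Over all rows, Pearson's r was 0.975 between the gastrula replicates, 0.978 between the 8-somite replicates and 0.886 to 0.913 between arrays of different stages. The median row difference between the stages was -0.06. A gene was said to rise or fall from gastrula to 8 somites where limma's moderated test, with adjustment over all rows, gave an adjusted p under 0.05. Differences are 8 somites minus gastrula in log2 units, with the standard error (SE) of the fit, and array values are given as replicate 1 and then replicate 2. The labels call the replicates biological without saying how they were separated, so a p-value here reflects only how far these samples spread, which may be technical.

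Between the stages 3749 rows, 10.1% of all rows, passed the test. Of these, 2308 rose (6.21% of all rows) and 1441 fell (3.88%). Among the named genes 186 passed (7.02%), 101 of them higher and 85 lower at 8 somites. The arrays of the 2 stages did not overlap for any of these 186 genes, and 50.1% of all rows also had arrays that did not overlap. For the named genes that rose, the median level went from 9.16 at the gastrula stage to 11.07 at 8 somites. For those that fell it went from 11.7 to 9.92. The typical size was similar both ways, with a median difference of 1.59 for the rises and -1.55 for the falls. A difference of at least 2 log2 units was reached by 30 rising and 19 falling genes. Calls were rare among dim rows: of the 3716 dimmest rows by mean level 0.0269% passed, against 19.5% of as many brightest rows. The counts depended on single arrays, and falls outnumbered rises when gastrula replicate 1 was left out. Without 8-somite replicate 1, 744 rows passed, and 619 did without 8-somite replicate 2, while 6036 passed without gastrula replicate 1 and 1918 without either hypoxic gastrula array. Of the 186 named calls, 8 held without any 1 array, namely fstl1a, fabp1b.1, gna14, b3gnt3.1, pla2g12b, map1lc3c and the genes with the placeholder symbols zgc:136410 and zgc:162608.

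**Figure D1:**
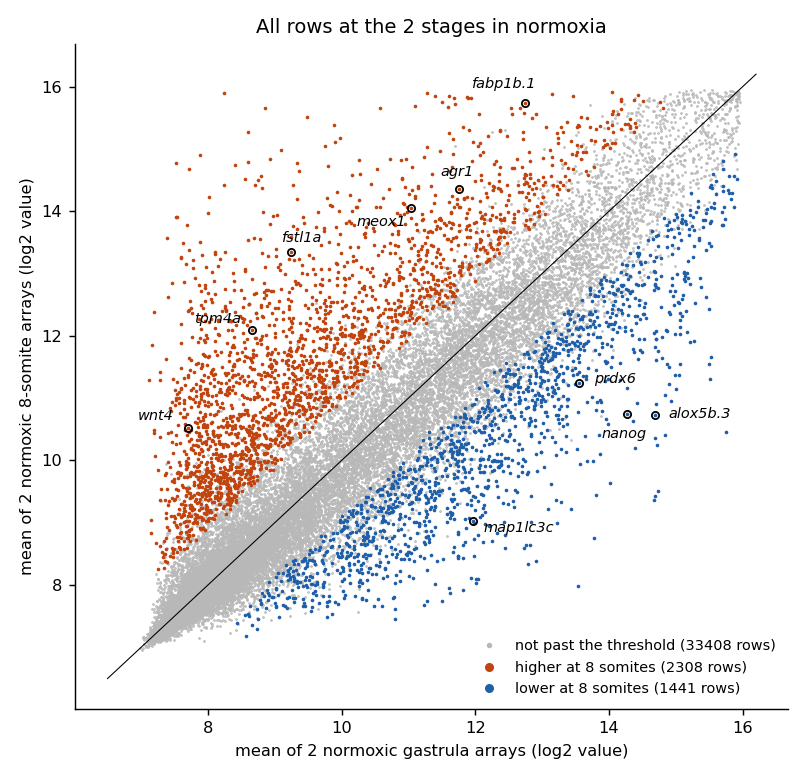
Mean log2 value of each row on the 2 normoxic gastrula arrays (x axis) against its mean on the 2 normoxic 8-somite arrays (y axis), with the line of equal values. Orange points are the 2308 rows that rose, blue points the 1441 that fell and grey points the 33408 that did not pass, and 10 genes described in the text are circled.

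The scatter of all rows shows the rises reaching further than the falls. A rise of at least 4 log2 units was seen in 151 rows and a fall of that size in 20. The largest differences, 7.66 and -5.55, belonged to rows without a name. In contrast, the 95% interval of the difference lay within -1 to 1 for 20937 rows (56.3%) and 1681 named genes.

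Of the named genes, fstl1a (NM_001017860), which encodes a secreted follistatin-like glycoprotein, had the largest rise. It read 9.22 and 9.25 on the gastrula arrays and 12.88 and 13.80 on the 8-somite arrays. Both gastrula arrays were low and nearly equal, and both 8-somite arrays stood far above them. The difference was 4.1 ± 0.30 (SE, n = 2 against 2; limma adjusted p = 0.00446), or 17.2-fold. The tropomyosin gene tpm4a (NM_001024467), whose product coats actin filaments, read 9.08 and 8.23 at the gastrula stage and 12.23 and 11.95 at 8 somites, and rose by 3.43 ± 0.34 (adjusted p = 0.00827). The gene fabp1b.1 (NM_001024651) encodes a fatty acid binding protein of the liver type. Its values were 13.03 and 12.46 in gastrulae and 15.60 and 15.88 at 8 somites, close to the top of the scale at 15.96. The rise was 3.0 ± 0.19 (adjusted p = 0.00367).

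Other large rises were in metabolic and signalling genes. The gene uraha, which encodes a hydrolase of urate breakdown, went from 8.43 and 8.32 to 11.39 and 11.63, a rise of 3.13 ± 0.37 (adjusted p = 0.0125). The regucalcin gene rgn, for a calcium-binding protein, went from 8.23 and 7.50 to 11.22 and 10.63. This was a rise of 3.06 ± 0.35 (adjusted p = 0.0109). All 4 of these 8-somite values stood more than 2 log2 units above every gastrula value of the same gene. The gene gna14, for a G protein alpha subunit of the Gq class, read 9.58 and 9.53 and then 12.43 and 12.60, with replicates almost equal at both stages (2.96 ± 0.19, adjusted p = 0.00367). The sugar transferase gene b3gnt3.1 rose by 2.80 ± 0.18 and pla2g12b, of the phospholipase A2 family, by 2.78 ± 0.19. For xkr4, of the XK-related family, the brighter of 2 rows rose by 2.78 ± 0.26, while the other row read about 7.8 on all 4 arrays with a difference of 0.01.

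The largest fall among named genes belonged to alox5b.3 (NM_001020578), an arachidonate 5-lipoxygenase gene. It read 14.24 and 15.15 at the gastrula stage and 10.06 and 11.41 at 8 somites. The replicates were about 1 log2 unit apart at both stages, and the stages did not overlap (-3.96 ± 0.54, adjusted p = 0.0174). The gene map1lc3c, for an LC3 protein of autophagosome membranes, went from 12.35 and 11.59 to 9.06 and 9.0, and fell by 2.93 ± 0.27 on the log2 scale (adjusted p = 0.00682). Its relative map1lc3b went from 14.02 and 14.17 to 12.26 and 12.19 (-1.87 ± 0.35, adjusted p = 0.0379). Both measured LC3 genes were thus lower at 8 somites, whereas atg3, for the enzyme that attaches lipid to LC3-type proteins, rose by 1.53 ± 0.29 (adjusted p = 0.04). Further large falls were those of nnr (-2.56 ± 0.30), of nabp1b, for a protein binding single-stranded DNA (-2.50 ± 0.34), of necap1, of clathrin-mediated endocytosis (-2.39 ± 0.29), and of the fucosyltransferase gene fut9b.1 (-2.38 ± 0.27). The gene fam113 fell by 2.97 ± 0.30 and xaf1, for a partner of the apoptosis inhibitor XIAP, by 2.14 ± 0.32. For the chloride intracellular channel gene clic5b 1 row fell (-2.85 ± 0.53, adjusted p = 0.0386), with gastrula arrays at 11.97 and 10.71, and its other, dimmer row differed by 0.03.

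**Figure D2:**
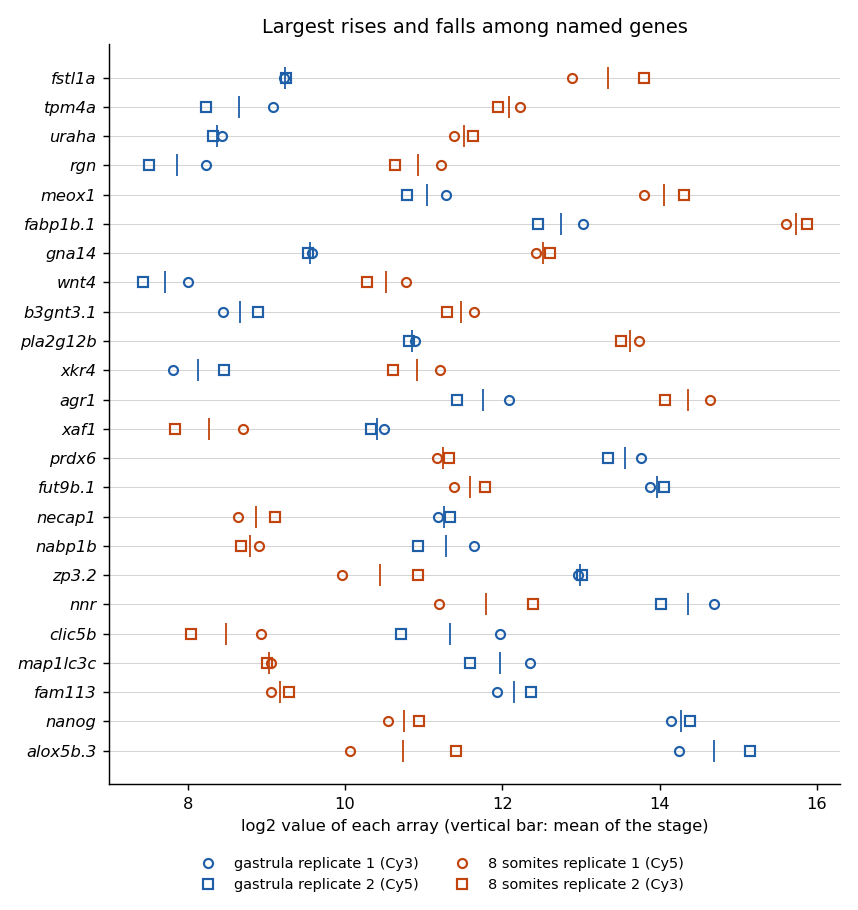
Log2 value of each of the 4 normoxic arrays (x axis) for the 12 named genes with the largest rise and the 12 with the largest fall, with vertical bars at the mean of each stage (n = 2). Blue marks the gastrula stage and orange 8 somites, and circles and squares are replicates 1 and 2. The genes were chosen among those whose stages lie apart.

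Gene lists are given below by their counts and medians, beside 101 rises and 85 falls among 2650 named genes and a median of -0.06 over all of them. Genes of the somites and the muscle lineage included 6 rises and 0 falls among 29 measured, with a median difference of 0.13. The homeobox gene meox1 (NM_001002450), which marks the somites, read 11.29 and 10.79 at the gastrula stage and 13.80 and 14.31 at 8 somites. The rise was 3.01 ± 0.38 (adjusted p = 0.0146). The repressor gene ripply1, which acts where the somite boundary is set, went from 11.66 and 11.02 to 12.59 and 12.91 (1.41 ± 0.19, adjusted p = 0.0167). For both genes the 8-somite arrays stood above the gastrula arrays, which were already bright. The gene uncx4.1, a homeobox gene of the posterior somite compartment, went from 8.96 and 8.62 to 9.61 and 10.24 (1.13 ± 0.22, adjusted p = 0.043). Of the muscle genes, smyd1b, for a methyltransferase of myosin assembly, went from 9.10 and 9.02 to 10.15 and 10.77 (1.40 ± 0.21, adjusted p = 0.0226). The myosin light chain gene myl13 went from 10.30 and 9.25 to 12.14 and 11.79 (2.19 ± 0.37, adjusted p = 0.0292). The sixth was tpm4a, described above.

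Of 9 troponin genes 0 passed, with differences from -0.37 to 0.62, and 7 of the 9 lay in the dimmer part of the rows, below the median mean level of 8.67, where few rows passed. The skeletal actin gene acta1b read 11.86 and 11.31 and then 12.59 and 12.47, a difference of 0.95 ± 0.23 that did not pass (adjusted p = 0.0724). The paired box gene pax7a differed by -0.12 ± 0.36. Since whole embryos were measured, fewer or more cells of a type and less or more RNA per cell cannot be told apart.

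Homeobox genes, which pattern the body axes, had 4 rises and 1 fall among 24 measured, with a median of 0.02. Beside meox1 and uncx4.1, the TALE-class genes meis2b and meis3 rose. The gene meis2b went from 8.15 and 7.97 to 10.01 and 10.64 (2.26 ± 0.21, adjusted p = 0.00673). The values of meis3 were 8.69 and 8.59 in gastrulae and 10.16 and 10.03 at 8 somites (1.45 ± 0.20, adjusted p = 0.0173). In both genes the 8-somite arrays lay above the gastrula arrays, and the 8-somite replicates of meis2b were further apart than those of meis3. The 4 measured genes of their pbx partners did not pass, with differences from -0.52 to 0.08.

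The homeobox gene that fell was nanog (NM_001098392), a maternally supplied regulator that helps switch on the zygotic genome in zebrafish. It read 14.14 and 14.39 in gastrulae and 10.55 and 10.94 at 8 somites. The gastrula arrays were high and alike, and the level fell by 3.52 ± 0.35 on the log2 scale, or 11.5-fold (adjusted p = 0.00821). Among 9 measured maternal and early zygotic genes 4 fell and 0 rose, with a median of -1.16, and 7 had 8-somite arrays wholly below the gastrula arrays, as did 813 of all 2650 named genes. The other 3 that fell encode zona pellucida proteins of the egg coat, and they were all the egg coat genes measured. Of these, zp3.2 went from 12.96 and 13.01 to 9.97 and 10.92 (-2.54 ± 0.31, adjusted p = 0.0135). The gene zp2.3 went from 13.32 and 13.31 to 11.77 and 12.05 (-1.41 ± 0.19, adjusted p = 0.016). The values of zp2.2 were 15.10 and 15.17 and then 13.62 and 14.08 (-1.28 ± 0.22, adjusted p = 0.0326). These egg coat transcripts agreed closely between the gastrula arrays and were spread more widely between the 8-somite arrays. The oocyte histone stem-loop binding gene slbp2 read 9.09 and 9.83 and then 8.06 and 8.55, a difference of -1.16 ± 0.33 that did not pass (adjusted p = 0.107).

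Of 6 measured mesendoderm and organizer genes 3 fell and 0 rose, with a median of -0.73. The zinc finger gene blf went from 11.52 and 12.14 to 9.70 and 10.03 (-1.96 ± 0.40, adjusted p = 0.0476). The apelin receptor gene aplnrb, which guides the movement of mesendoderm cells, went from 12.27 and 12.53 to 10.75 and 11.30 (-1.37 ± 0.26, adjusted p = 0.0384). The gene osr1, an odd-skipped related factor of the mesendoderm, went from 11.04 and 11.31 to 9.69 and 10.14 (-1.26 ± 0.24, adjusted p = 0.0424). The stages did not overlap in any of the 3, as in all 186 named genes that passed and 50.1% of all rows. All 3 lost the call when gastrula replicate 2, either 8-somite array or either hypoxic gastrula array was left out. Of the 13 shield-stage markers listed, nanog alone was measured by name.

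The lists of neural genes (8 measured) and of neural crest and placode genes (7 measured) each had 0 members that passed. The forebrain gene fezf2 came closest among the neural genes, with 8.32 and 8.26 in gastrulae and 9.22 and 9.11 at 8 somites (0.87 ± 0.20, adjusted p = 0.0656). The repressor gene her3 read 11.38 and 10.40 and then 11.39 and 11.33, so that the stages overlapped. The crest and placode gene tfap2c differed by -0.39 ± 0.20 (adjusted p = 0.343). The melanin synthesis gene dct, which had the smallest p of its list, differed by -0.97 ± 0.30 (adjusted p = 0.134). The measured notochord markers lamb1a and cav1 differed by 0.23 ± 0.18 and 0.22 ± 0.36. The blood gene runx1 differed by -0.01 ± 0.19, with a 95% interval from -0.50 to 0.47. In the axon guidance list, 1 of 13 genes passed: draxina, for a secreted repellent, rose from 8.60 and 8.67 to 9.70 and 9.93 (1.18 ± 0.19, adjusted p = 0.0253). Outside that list, dpysl2b, for a collapsin response mediator protein, rose by 1.97 ± 0.20 (adjusted p = 0.00917).

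**Figure D3:**
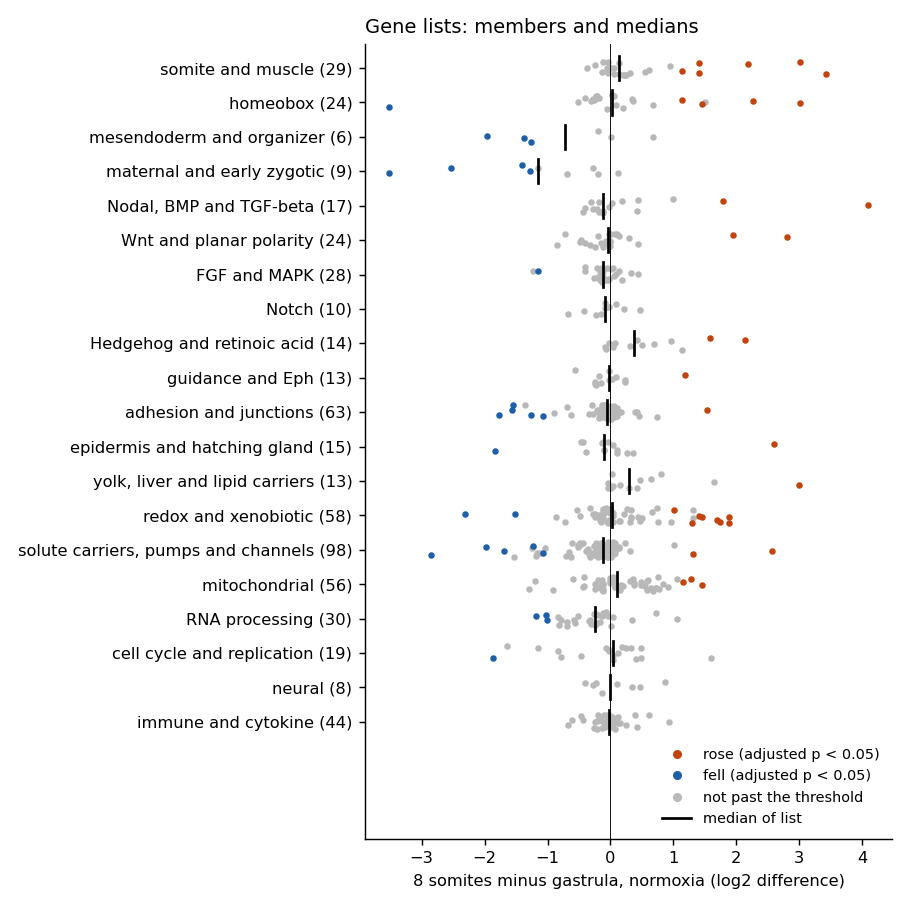
Difference between 8 somites and gastrula in log2 units (x axis) for each measured gene of 20 lists, with the number measured in brackets and the list's median as a black bar. Orange points rose, blue points fell and grey points did not pass, and most members of most lists lie near 0.

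In the Wnt and planar polarity list 2 of 24 genes rose and 0 fell. The ligand gene wnt4 went from 8.00 and 7.42 to 10.77 and 10.28 (2.82 ± 0.30, adjusted p = 0.0096), while wnt2bb, wnt3a, wnt5a and wnt9a differed by -0.12 to 0.11. Of the 5 Wnt ligands measured, 4 lay below the median level of all rows, where few rows passed. The receptor gene fzd10 went from 9.92 and 9.94 to 12.05 and 11.71 (1.95 ± 0.19, adjusted p = 0.00823). The other 2 Frizzled receptors measured did not pass. The polarity genes vangl2 and ptk7a, both used in convergence and extension of the gastrula, differed by -0.49 ± 0.23 and -0.72 ± 0.33 and did not pass (adjusted p = 0.301 and 0.304).

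In the Nodal, BMP and TGF-beta list 2 of 17 genes rose, fstl1a and bambib. The latter encodes a pseudoreceptor that dampens BMP signalling, and it went from 9.77 and 9.85 to 11.04 and 12.16 (1.79 ± 0.33, adjusted p = 0.0366). Its 8-somite arrays were more than 1 log2 unit apart. The Hedgehog and retinoic acid list had 2 rises among 14 genes and a median of 0.37. Both belong to retinoid handling. The retinol binding protein gene rbp5 went from 10.55 and 9.94 to 12.43 and 12.36 (2.15 ± 0.24, adjusted p = 0.0103). The retinol dehydrogenase gene rdh8a went from 8.87 and 7.80 to 9.86 and 9.97 (1.58 ± 0.30, adjusted p = 0.0391), and it lost the call under renewed quantile normalization. Of the FGF and MAPK list, 1 of 28 genes fell, the transcription factor gene ets2 (-1.16 ± 0.20, adjusted p = 0.033). All 7 genes of the FGF family measured, with fgf11a, fgf12b and fgf13b counted among them, lay between -0.21 and 0.44. Of these, 6 were below the median level of all rows, where few rows passed. Of 10 Notch genes 0 passed. The Notch effector rbpja had the smallest p there, with a difference of -0.68 ± 0.25 (adjusted p = 0.182).

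Adhesion and junction genes had 1 rise and 5 falls among 63 measured. Of 11 claudins, the sealing proteins of tight junctions, 2 fell. The gene cldn30 went from 12.81 and 13.13 to 11.09 and 11.30 (-1.78 ± 0.23, adjusted p = 0.0148). The values of cldng were 11.69 and 11.76 and then 10.14 and 10.16 (-1.57 ± 0.25, adjusted p = 0.0264). Replicates of cldng were nearly equal at both stages. The other 9 claudins did not pass, with differences between -0.34 and 0.42. Of all 11 claudins, 6 lay below the median level of all rows, where few rows passed. The tight junction gene marveld3 went from 9.86 and 10.16 to 8.61 and 8.32 (-1.55 ± 0.19, adjusted p = 0.0132). The immunoglobulin-type adhesion genes mpzl3 (-1.26 ± 0.18) and igsf3l (-1.08 ± 0.21) also fell. The polarity gene crb3b, of the Crumbs complex at the apical membrane, was in none of the lists and fell by 1.27 ± 0.25. The cell adhesion gene bcam, also outside the adhesion list, rose by 2.01 ± 0.37 (adjusted p = 0.0362). The list's rise was the clustered protocadherin gene pcdh1g2, which went from 7.27 and 7.51 to 8.56 and 9.30 (1.54 ± 0.30, adjusted p = 0.0409). It was 1 of 28 clustered protocadherins measured, all below that median level, and these genes have near-identical copies, so signal from a related transcript was not tested.

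In the epidermis and hatching gland list, 1 of 15 genes rose and 1 fell. The anterior gradient gene agr1, of secretory epithelial cells, went from 12.09 and 11.42 to 14.65 and 14.07 (2.60 ± 0.35, adjusted p = 0.0166). The protease inhibitor gene spint1a, which maintains epithelial integrity, went from 13.36 and 14.27 to 11.85 and 12.10 (-1.84 ± 0.37, adjusted p = 0.0443). The keratin gene krt97 read 15.59 and 15.90 and then 15.03 and 15.59, near the top of the scale, and did not pass (-0.44 ± 0.26, adjusted p = 0.459). Of the genes for yolk and lipid carriers, fabp1b.1 was the 1 that passed among 13, with a list median of 0.29. The nuclear receptor gene hnf4b, a regulator of such genes, read 9.77 and 9.85 and then 10.08 and 11.14, and did not pass (0.81 ± 0.37, adjusted p = 0.301). The adipocyte-type relative fabp4a went from 10.31 and 9.74 to 12.08 and 11.28, just short of the threshold (1.65 ± 0.36, adjusted p = 0.0545). For fabp4a the lowest 8-somite array was still about 1 log2 unit above the highest gastrula array.

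Redox and xenobiotic genes gave 8 rises and 2 falls among 58 measured, with a median of 0.02. Of the rises, 4 were cytochrome P450 genes of the cyp2aa cluster, which encode haem enzymes that oxidize small molecules. All 6 measured members of the cluster were higher at 8 somites, by 0.75 to 1.88, as were 1018 of all 2650 named genes by any amount. Of the 6, 4 passed. The gene cyp2aa3 went from 11.02 and 11.43 to 13.08 and 13.13 (1.88 ± 0.22, adjusted p = 0.0115). The values of cyp2aa9 were 11.97 and 12.28 and then 13.85 and 13.90 (1.75 ± 0.27, adjusted p = 0.0236). Their relatives cyp2aa1 (1.45 ± 0.19) and cyp2aa2 (1.01 ± 0.20) passed as well, and cyp2aa4 and cyp2aa8 did not, with differences of 1.31 and 0.75. The copies are similar in sequence, so whether 1 transcript gave signal on several probes was not tested. The other 12 P450 genes compared were of families 1 to 4, except for cyp20a1. Of these 12, 0 passed, with a median of 0.01 and differences from -0.49 to 1.32. The largest of these was about that of cyp2aa4. Of the 12, 9 lay below the median level of all rows.

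The antioxidant genes moved in both directions. The glutathione peroxidase gene gpx7 went from 9.84 and 9.36 to 11.43 and 11.53 (1.88 ± 0.20, adjusted p = 0.00927), and gpx4b, whose product reduces lipid peroxides, from 12.63 and 11.77 to 13.59 and 13.64 (1.42 ± 0.28, adjusted p = 0.0442). The extracellular superoxide dismutase gene sod3a rose from 8.45 and 8.57 to 9.74 and 9.87 (1.30 ± 0.18, adjusted p = 0.0195). In the opposite direction, the peroxiredoxin gene prdx6 went from 13.76 and 13.35 to 11.17 and 11.32 (-2.31 ± 0.20, adjusted p = 0.0061). The glutathione synthetase gene gss went from 9.11 and 9.86 to 8.05 and 7.88 (-1.52 ± 0.27, adjusted p = 0.0336). The eighth rise was ugt8, a glycosyltransferase gene, by 1.69 ± 0.28.

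**Figure D4:**
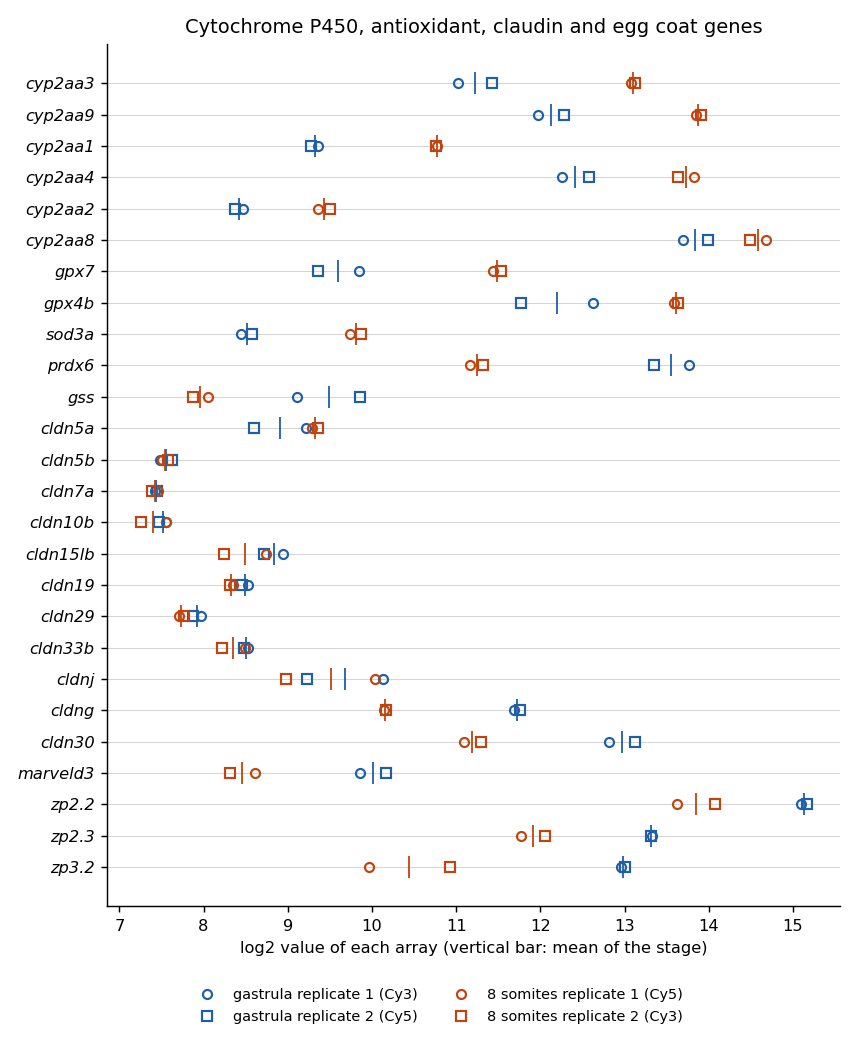
Log2 value of each of the 4 normoxic arrays (x axis) for the 6 measured cyp2aa genes, 5 antioxidant genes, all 11 claudins with marveld3, and the 3 egg coat genes, with vertical bars at the stage means (n = 2). Blue marks the gastrula stage and orange 8 somites: the cyp2aa genes lie to the right at 8 somites and the egg coat genes to the left, while 9 of the claudins have stage means within 0.5 log2 units of each other.

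In the cell cycle list, 1 of 19 genes fell: the cyclin gene ccna2 went from 15.61 and 15.86 to 13.74 and 14.00 (-1.86 ± 0.25, adjusted p = 0.0166). The G1 cyclin gene ccnd2a moved the other way, from 8.68 and 8.81 to 9.78 and 10.91, and missed the threshold narrowly (1.60 ± 0.33, adjusted p = 0.0502). Of 23 chromatin genes the histone gene h3c13a alone passed, with 13.65 and 12.97 in gastrulae and 11.34 and 11.23 at 8 somites (-2.03 ± 0.26, adjusted p = 0.0147). RNA processing genes had 3 falls and 0 rises among 30, with a median of -0.25, and 25 of the 30 were lower at 8 somites, as were 1632 of all 2650 named genes. The clearest was the RNA-binding gene rbm4.3 (-1.18 ± 0.21, adjusted p = 0.0349). The other falls there, of the splicing genes snrpa and dhx38, were lost when each array was centred on its median.

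Of 6 ribosomal protein genes 0 passed. These genes were bright, with a median mean level of 15.45, near the top of the scale at 15.96. In 5 of them the 8-somite arrays lay wholly above the gastrula arrays, as they did in 526 of all 2650 named genes, and the median was 0.55. The largest was rpl27a, from 14.91 and 14.29 to 15.73 and 15.80 (1.17 ± 0.27, adjusted p = 0.0638). Of 19 translation genes 1 rose, the initiation factor subunit gene eif2b1 (1.29 ± 0.23, adjusted p = 0.0331). The mitochondrial list, which does not hold every mitochondrial gene, had 3 rises and 0 falls among 56, with a median of 0.10. All 3 encode proteins of the mitochondrial ribosome: mrps14 (1.46 ± 0.25), mrpl17 (1.28 ± 0.21) and mrpl14 (1.15 ± 0.20). Over all 13 measured mitochondrial ribosome genes the median was 0.65, with 10 higher and 3 lower. Of all 2650 named genes, 1018 were higher at 8 somites. Mitochondrial genes outside the list passed in both directions. The genes mpc2a (2.59 ± 0.24), lyrm7 (1.88 ± 0.38), oxct1b (1.54 ± 0.23) and ppa2 (1.49 ± 0.19) rose. The malic enzyme gene me2 fell (-0.996 ± 0.187, adjusted p = 0.0388). In protein degradation, 2 of 64 genes rose and 2 fell. The rises were the proteasome genes psma6b, from 12.62 and 11.52 to 13.55 and 13.56 (1.48 ± 0.30, adjusted p = 0.0471), and psmd13, from 13.51 and 13.26 to 14.27 and 14.41 (0.95 ± 0.18, adjusted p = 0.0386). The falls were the ubiquitin-conjugating enzyme gene ube2j2 (-1.68 ± 0.31) and the ubiquitin ligase adaptor gene klhl24a (-1.34 ± 0.22).

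Vesicle traffic genes split, with 3 rises and 2 falls among 60. The late endosome GTPase gene rab7b went from 10.36 and 10.27 to 11.90 and 12.28 (1.78 ± 0.19, adjusted p = 0.00972). The gene sar1ab, for the GTPase that starts COPII coat assembly, rose by 1.69 ± 0.23 and the TRAPP complex gene trappc1 by 1.54 ± 0.21. The gene rab34a, by contrast, went from 13.13 and 13.18 to 11.70 and 11.70 (-1.46 ± 0.23, adjusted p = 0.0237), and rab8a fell by 1.01 ± 0.20. Solute carriers, pumps and channels had 2 rises and 5 falls among 98, with 77 of them lower at 8 somites, against the 1632 of 2650 given above, and a median of -0.11. The zinc exporter gene slc30a1b went from 9.89 and 10.11 to 12.36 and 12.76 (2.56 ± 0.25, adjusted p = 0.00757). The GDP-fucose carrier gene slc35c1 went from 12.68 and 12.70 to 10.45 and 10.96 (-1.98 ± 0.33, adjusted p = 0.0285). The potassium channel gene kcnj11 went from 9.42 and 10.05 to 8.03 and 8.06 (-1.69 ± 0.25, adjusted p = 0.0214). The exchanger gene slc24a5, known from pigment cells, fell from 10.35 and 10.28 to 9.13 and 9.06 (-1.22 ± 0.18, adjusted p = 0.0214).

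Of 44 immune and cytokine genes 0 passed. The complement gene c8a had the smallest p (0.94 ± 0.24, adjusted p = 0.0844). The 13 interleukin and interferon genes, with the receptor genes il10ra and il15ra counted among them, lay between -0.43 and 0.12. Of these, 11 lay below the median level of all rows. The extracellular matrix list had 2 rises among 29, fstl1a and the collagen-modifying gene plod2 (1.21 ± 0.24), whose other row differed by 0.43 and did not pass. Of 26 chaperone genes the prolyl isomerase fkbp3 alone passed (1.02 ± 0.19), and of the 17 genes in the apoptosis list dap1b alone (-1.12 ± 0.20). Outside that list, xaf1 fell, as given above, and the Apaf1-interacting protein gene apip rose by 1.37 ± 0.23. In 11 glucose genes the glucokinase gene gck fell from 8.51 and 8.77 to 7.60 and 7.71 (-0.98 ± 0.19, adjusted p = 0.0435). The lipid list of 40 had 2 rises, pla2g12b and the prostaglandin D synthase gene ptgdsb.2 (2.09 ± 0.35), beside the fall of alox5b.3. Of 39 zinc finger genes prdm12b rose (1.1 ± 0.18) and znf395a fell (-1.36 ± 0.23). Genes with the tightest interval around 0 included babam1, at 10.83 and 10.76 and then 10.74 and 10.87, whose difference had a 95% interval from -0.45 to 0.46.

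The stage order was also read in the hypoxic arrays, which shared no sample with the comparison, although 2 of them entered its estimate of spread. The hypoxic 8-somite array lay above both hypoxic gastrula arrays in 2254 of the 2308 rows that rose (97.7%), against 28.1% of all rows. It lay below both in 1348 of the 1441 rows that fell (93.5%), against 48.4% of all rows. Among named genes the order was the same for 101 of 101 rises and 82 of 85 falls. The exceptions were rab8a, rbm4.3 and pudp, in which the hypoxic 8-somite array lay between the hypoxic gastrula arrays. With calls from the normoxic arrays alone and no dye term, the shares were 97.0% and 88.4%.

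The size of the difference on the hypoxic arrays was close to the normoxic one in some genes and further from it in others. These hypoxic differences are between plain means of the arrays, without the dye term. Between the hypoxic stages nanog differed by -3.03, alox5b.3 by -3.85 and fstl1a by 3.71, each close to its normoxic difference. For tpm4a the hypoxic gastrula arrays read 10.89 and 11.16, above the normoxic ones, and the difference was 0.61, compared with 3.43 in normoxia. The nnr gene differed more in hypoxia, by -4.11, and meis2b by 3.2. In limma's test of the difference between the 2 stage effects 0 of 37157 rows passed, with a smallest adjusted p of 0.875, and 1569 rows had an unadjusted p under 0.05. That test rests on 1 hypoxic 8-somite array, which was assumed to vary like the others.

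**Figure D5:**
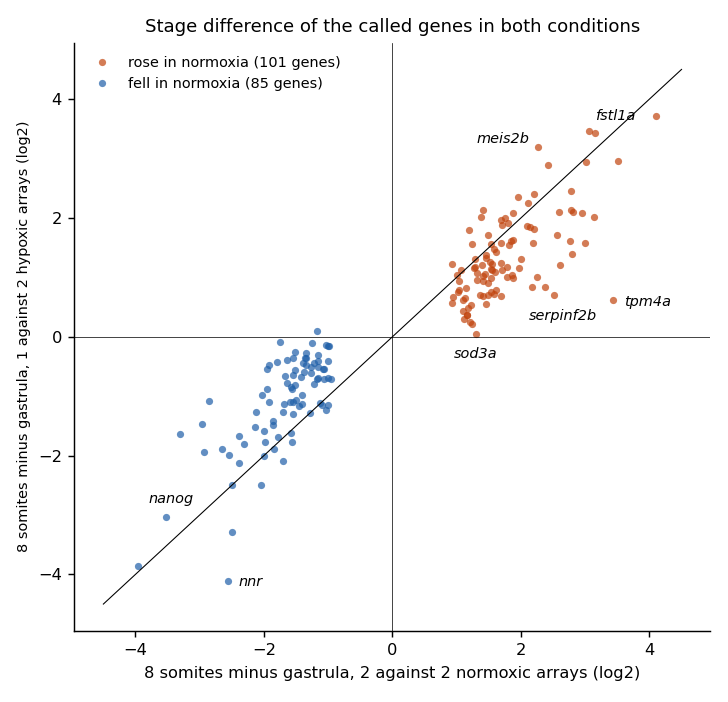
Difference between 8 somites and gastrula for the 186 named genes that passed in normoxia, in the 2 against 2 normoxic arrays (x axis) and in the 1 against 2 hypoxic arrays (y axis), both in log2 units, with the line of equal differences. Orange points rose and blue points fell in normoxia: 101 of 101 rises lie above 0 on the y axis, sod3a and tpm4a closest to it for their size.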

How the data were processed

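Whole-embryo RNA was measured on arrays. The labels give total RNA extracted with TRIzol and cDNA labelled with Cy3 or Cy5. The authors deposited 1 table of log2 values. RMA is the tool named in the submitters' processing notes, without a version. That the scale is log2 was inferred from the range, 6.85 to 15.96. The array design and the genome build are not stated in these sources, nor is any sharing of an array by a Cy3 and a Cy5 sample. Each sample was therefore counted as 1 array. The second hypoxic segmentation sample had no values in the table and was not analysed here. The number of arrays limits the precision.

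Rows were named by matching RefSeq transcript identifiers without versions to a RefSeq gene table of the assembly GRCz12tu, used for names alone. Of 3055 such rows, 392 had no match. For a gene with several rows, the row with the highest mean stood for it. A linear model with 4 groups and dye was fitted to the 7 arrays with limma 3.58.1 (R 4.3.3) and moderated by empirical Bayes, which left 2 residual and 2.92 prior degrees of freedom. The hypoxic 8-somite array, alone in its group, adds nothing to the spread. P-values were two-sided and adjusted after Benjamini and Hochberg across the whole table, and 0.05 was the threshold. The code was tested on simulated data. Dye passed in 0 rows (limma, 681 at an unadjusted p under 0.05).

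Named genes were the 12 largest rises and falls past the threshold with descriptive symbols and stages that did not overlap, up to 4 members per direction of each of 38 gene lists, the member with the smallest p of lists without a call, measured cell type markers, up to 8 genes with the tightest interval around 0, genes whose rows fell on different sides of the threshold, and the 2 largest changes in each direction among placeholder symbols. Other genes, and the families within lists, were chosen after their values were seen. The comparison and the lists were chosen with earlier results of these data known. List membership was corrected after values were seen: symbols of another function and 2 symbols put in from earlier results were removed, and dotted symbols were added. The result of 1 list is not reported here. Alternatives were a fit without dye, the replicate number as a block, the normoxic arrays alone, renewed quantile normalization, median centring, filters on dim rows, other prior variances, other thresholds, averaged rows and leaving out each array.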

Additional observations from a re-analysis of the deposited data

How the results depend on the processing

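No called row or named gene changed direction under any alternative, left-out arrays included. This says little about stability, since the arrays of the 2 stages did not overlap in any of the 3749 called rows. Most alternatives also changed the test and not the difference itself. Counts are given as rows called, rows higher, rows lower and named genes, which were 3749, 2308, 1441 and 186 in the fit reported. The 4 normoxic arrays alone with dye gave 1918, 1285, 633 and 74. A test against a difference of 0.5 (limma treat) gave 1912, 1308, 604 and 78, and an adjusted p under 0.1 gave 5847 rows, 2543 lower and 317 genes. The labels do not say whether equal replicate numbers pair the samples, and the fit reported had no term for the replicate number. Over all rows, deviations from the stage mean correlated at 0.54 between same-numbered normoxic arrays and at -0.54 between same-dye ones. With 2 arrays per stage these are 1 value with opposite signs: same-numbered arrays deviated alike and same-dye arrays in opposite ways. Why they did so was not tested. With the replicate number as a block together with dye, 2637 rows were called, 862 of them lower, with 116 genes, and with the block in place of dye 4367 rows and 223 genes. Leaving out 1 array gave 619 to 6036 rows, 531 to 2742 higher, 88 to 3294 lower and 13 to 337 genes. The extremes were 619 without 8-somite replicate 2, 744 without replicate 1 and 6036 without gastrula replicate 1, where the lone array was assumed to vary like the others. Without dye 268 genes passed, and without the lowest 50% of rows 228. Of the 186 genes, 65 kept the call in all 15 alternatives that used all or only the normoxic arrays, 168 under quantile normalization and 177 under centring. The share of rows called lower with the same order in the hypoxic arrays went from 93.5% to 88.4% with calls from the normoxic arrays alone. Dim rows limit what could be called, as few of them passed.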

Other observations

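The genes described here were chosen after their values were seen, and most belong to none of the lists. The reticulocalbin gene rcn3, for a calcium-binding protein of the endoplasmic reticulum, went from 9.98 and 10.14 to 12.23 and 12.73 (2.42 ± 0.28, limma adjusted p = 0.0119). The mannosidase gene manea, for an enzyme that trims sugar chains in the Golgi, rose by 1.85 ± 0.19, and rpn2, for a subunit of the complex that attaches those chains, by 1.18 ± 0.22. The selenoprotein gene selenow2b went from 8.32 and 8.31 to 9.99 and 10.88 (2.11 ± 0.28), and selenon, of the same kind, rose by 1.39 ± 0.19. The creatine synthesis gene gatm went from 12.50 and 12.76 to 14.58 and 15.08 (2.2 ± 0.25). The gene mpc2a, for a subunit of the mitochondrial pyruvate carrier, went from 8.74 and 8.92 to 11.19 and 11.66 (2.59 ± 0.24). In each of these genes the stages lay apart, as in all 186 named genes that passed and 50.1% of all rows.

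Of genes known from the mineral bodies of the inner ear, the otoconin gene oc90 rose from 8.40 and 8.19 to 9.70 and 9.52 (1.32 ± 0.21), and the starmaker gene stm fell from 13.30 and 13.49 to 11.67 and 11.72 (-1.70 ± 0.19). The secreted factor gene pnhd fell from 12.92 and 12.83 to 10.67 and 10.98 (-2.05 ± 0.18), and the parathyroid hormone gene pth1b from 10.30 and 10.50 to 8.24 and 8.71 (-1.93 ± 0.23).

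Of the 186 named genes that passed, 15 carry placeholder symbols, 8 higher and 7 lower. The largest rises were those of zgc:162608, by 3.50, and zgc:136410, by 3.15, and the largest falls those of zgc:153911, with -3.30, and zgc:114041, with -2.65.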
